A study of Mus musculus with 22 samples.

Results

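The genes described here are 6 markers of retinal horizontal cells, Onecut1, Onecut2, Onecut3, Lhx1, Prox1 and Calb1, taken by name from 2 deposited gene count tables. Each table lists 54532 genes, and all 6 members are in both. They were measured by RNA sequencing of whole pieces of mouse retina with choroid, in a study of how natural killer cells act in laser-induced choroidal neovascularisation (CNV). In this model a laser burn opens the membrane under the retina and choroidal vessels grow through it.

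The first table holds 16 wild-type libraries (strain C57BL/6J, adult), 4 controls without CNV and 4 each at 3, 7 and 14 days after the laser. The second holds 6 libraries, all at day 3 after the laser: 3 from Rag2-/- mice, which lack T and B cells, and 3 from Rag2-/- mice without γc as well, the common gamma chain, a receptor subunit that natural killer cells need (written here as Rag2 KO and Rag2 gc KO). Both Rag2 groups thus carry the Rag2 deletion and the laser injury, and the second table has no uninjured group. Control replicate 4 is titled as without CNV but carries a laser treatment tag. It was kept as a control, and results are also given without it.

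Horizontal cells are inhibitory interneurons of the outer retina that receive input from photoreceptors and feed back onto them. Onecut1 is the Onecut family factor that sets horizontal cell fate during development and is kept on in the adult cells. Lhx1 is the LIM homeodomain factor that places the cells in their layer, Prox1 is a homeodomain factor needed for their formation, and Calb1 encodes the calcium buffer calbindin, the usual stain for mature horizontal cells. Several of these genes also mark other cells of the eye: the Onecut factors are made in ganglion cells, calbindin in some amacrine and ganglion cells, and Prox1 in AII amacrine cells, lens fibres and lymphatic endothelium. The 6 genes are therefore read here one by one.

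In the deposited annotation (mm10) Onecut1 (ENSMUSG00000043013) lies on chr9:74861921-74891781, Onecut3 (ENSMUSG00000045518) on chr10:80494835-80517276 and Calb1 (ENSMUSG00000028222) on chr4:15881264-15908064, all on the plus strand, as is Onecut2 (ENSMUSG00000045991). Lhx1 (ENSMUSG00000018698) lies on chr11:84518284-84525535 and Prox1 (ENSMUSG00000010175) on chr1:190118035-190170714, both on the minus strand. Each value is 1 count per gene and library. The annotated transcripts of the 3 Onecut genes shared almost no sequence that could misplace reads: 1 stretch of 50 bases was common to Onecut1 and Onecut3, and none to Onecut2 and either of the other two.

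Entries of the promoter table from RefSeq (GRCm38.p6) were used for 3 of the 6 members, Onecut1, Lhx1 and Prox1. No entry was used for Onecut2, Onecut3 or Calb1, so their upstream sequences were not examined. The 250 bases before the start of Onecut1 (chr9:74861671-74861920, plus strand) and of Lhx1 (chr11:84525535-84525784, minus strand) are printed because all their day 3 and day 7 values were below every control value. Capitals mark matches to TGACG (the core of a cAMP response element) or CCAAT on either strand.
Onecut1: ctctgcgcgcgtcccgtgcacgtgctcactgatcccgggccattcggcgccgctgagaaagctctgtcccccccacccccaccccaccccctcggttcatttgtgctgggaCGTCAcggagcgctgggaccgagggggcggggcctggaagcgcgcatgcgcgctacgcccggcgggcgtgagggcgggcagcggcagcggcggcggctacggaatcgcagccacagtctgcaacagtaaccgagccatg
Lhx1: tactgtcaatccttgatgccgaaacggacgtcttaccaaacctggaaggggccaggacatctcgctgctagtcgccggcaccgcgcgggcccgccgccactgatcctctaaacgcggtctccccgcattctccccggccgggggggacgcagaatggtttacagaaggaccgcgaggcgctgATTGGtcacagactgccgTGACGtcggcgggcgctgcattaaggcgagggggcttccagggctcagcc
TGACG lies 139 bases before the Onecut1 start and 50 bases before the Lhx1 start. It is in 17.7% of all 32817 promoter entries. CCAAT lies 68 bases before the Lhx1 start only, and is in 33.8% of entries. The Onecut core ATCGAT (0.728% of entries), its form ATCAAT (6.73%) and the LIM homeodomain core TAATTA (4.85%) were in neither window. They were also absent from the windows of the other entries used, both of Prox1. The motifs were picked after the sequences were seen, and no pair of them overlaps.

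The wild-type libraries held 15033983 to 16848254 counts and the Rag2 libraries 27227847 to 30315086. Il2rg, which encodes the common gamma chain, had 37, 62 and 28 counts in the Rag2 KO libraries and 0 in all 3 Rag2 gc KO libraries. Rag2 had 0 counts in 5 of these 6 libraries and 1 in Rag2 gc KO replicate 2, but a gene of developing lymphocytes checks little in this tissue. Rod, cone, Muller glia and pigment epithelium marker lists were detected in every library, with no marker at 0 in a whole group. The wild-type libraries differed in RNA from tissue outside the retina and choroid. The 19 lens genes summed to 122 to 9439 CPM (counts scaled to library size by TMM factors) in controls, 20200 to 38040 at day 3, 9.41 to 26270 at day 7 and 480 to 100100 at day 14. The 11 cornea and conjunctiva genes summed to 2502 to 7708, 4708 to 34170, 5019 to 26520 and 5621 to 19780 CPM in the same order. In the Rag2 table the lens genes summed to 1545 to 6134 CPM in Rag2 KO and 85.9 to 5903 in Rag2 gc KO. The cornea and conjunctiva genes summed to 6.19 to 12.9 and 4.50 to 9.80 CPM there. A list of 8 skeletal muscle genes summed to 43.4 to 91.9 CPM in Rag2 KO and 73.7 to 470.8 in Rag2 gc KO. Day 14 replicate 1 had the highest lens sum and the lowest sums of the mature horizontal, amacrine, ganglion, bipolar, rod and cone lists. Its Muller glia sum was the highest, at 6366 CPM. It is named below wherever it decides a value.

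Per gene length, Prox1 and Calb1 were far above the other 4 genes in the controls. Prox1 was highest at 68.9 ± 8.37 TPM (counts per gene length, scaled to a common sum; SD, n = 4), then Calb1 at 42.5 ± 5.48, Lhx1 at 5.39 ± 0.587, Onecut3 at 4.05 ± 0.45, Onecut1 at 1.94 ± 0.315 and Onecut2 at 1.36 ± 0.0925. No neighbours in this order overlapped among the 4 control libraries. The lower end of the order differed after the laser. On the TPM scale Onecut1 was above Onecut2 in 4 of 4 controls and below it in 4 of 4 libraries at each of day 3, day 7 and day 14. It was also below Onecut2 within each of the 3 Rag2 KO and 3 Rag2 gc KO libraries. These were all lasered, and with no uninjured Rag2 group their order cannot be tied to the laser. There the order by mean was otherwise the same, but Prox1 and Calb1 overlapped in Rag2 KO (59.6 to 71.5 against 55.6 to 69.2 TPM).

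**Figure D1:**
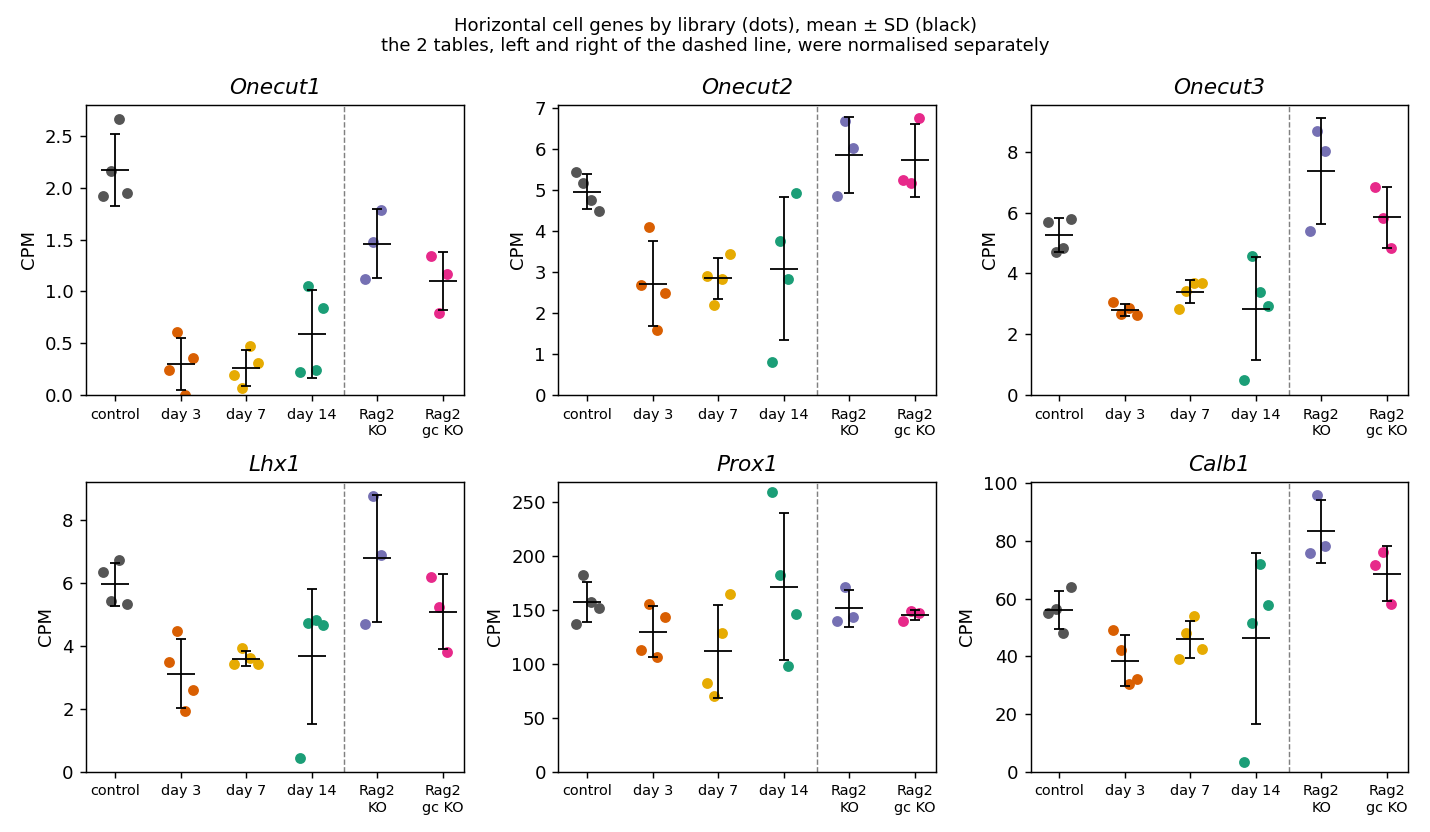
Each panel plots the CPM (y axis) of a gene in every library (dots) by group (x axis), with the mean and SD in black. The 2 tables lie on either side of the dashed line and are not compared. All 12 Onecut1 values after the laser lie below the lowest control (1.92 CPM), and the lowest day 14 dot of Onecut2, Onecut3, Lhx1 and Calb1 is replicate 1.

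Onecut1 fell after the laser. Its level in the 4 controls was 1.92, 2.16, 2.67 and 1.95 CPM, from 31, 33, 42 and 30 counts. At day 3 it was 0.245, 0.604, 0 and 0.357 CPM, from 4, 10, 0 and 6 counts. At day 7 it was 0.19, 0.0644, 0.474 and 0.307 CPM, from 3, 1, 8 and 5 counts. The day 3 and day 7 values overlapped each other and were all far below the lowest control. The count of 0 in day 3 replicate 3 allows a level of up to 0.199 CPM (3 counts, counting error only). At day 14 Onecut1 was 0.217, 1.06, 0.242 and 0.844 CPM, so that 2 libraries stayed at the day 3 and day 7 level and the other two lay between that level and the controls.

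The mean of Onecut1 was 2.18 ± 0.347 CPM in controls and 0.301 ± 0.251, 0.259 ± 0.174 and 0.589 ± 0.425 on the 3 days after the laser (SD, n = 4 each). Against control, edgeR's quasi-likelihood test gave a log2 fold change of -2.80 ± 0.63 (SE) at day 3, 6.97-fold lower, with an adjusted p of 0.0179. At day 7 it gave -3.02 ± 0.65, 8.1-fold lower, with an adjusted p of 0.0176. At day 14 the difference of -1.86 ± 0.59 did not pass (adjusted p = 0.0976 by edgeR), although all 4 libraries lay below all 4 controls. DESeq2 gave an adjusted p of 0.0253 there. In the authors' deposited table its log2 fold change was -1.86, with an adjusted p of 0.0103. Without day 14 replicate 1 the day 14 value was -1.58 ± 0.58 (SE, adjusted p = 0.154 by edgeR). In bulk tissue, fewer cells of a type and less RNA per cell cannot be told apart. The labels do not say that the libraries come from separate animals, so these p-values measure the spread between libraries. The calls rest on 30 to 42 counts in each control library.

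Control replicate 3, the highest control, decides the edgeR calls of Onecut1 at the threshold of 0.05. Without it the log2 fold change was -2.66 at day 3 (adjusted p = 0.0599) and -2.87 at day 7 (adjusted p = 0.0692). The day 7 call was also lost without day 7 replicate 1 (-2.90, adjusted p = 0.0642) or replicate 2 (-2.68, adjusted p = 0.0656). Without control replicate 4, the one with the laser tag, both calls held (adjusted p = 0.0448 and 0.039 by edgeR). Without day 14 replicate 1, which is in neither comparison but adds to the spread in the fit, the adjusted p was 0.00359 at day 3 and 0.00494 at day 7.

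Onecut2 and Onecut3, the other members of the family, were lower by less. Onecut2 had 5.44, 5.18, 4.76 and 4.48 CPM in controls, 2.69, 4.10, 1.59 and 2.50 at day 3, and 2.91, 2.19, 2.84 and 3.44 at day 7. Every day 3 and day 7 library lay below every control. At day 14 it had 0.794, 3.75, 2.84 and 4.93 CPM, and the last of these lay within the control range. The log2 fold change against control was -0.86 ± 0.39 at day 3, -0.80 ± 0.39 at day 7 and -0.68 ± 0.39 at day 14 (SE), and none passed edgeR's test (adjusted p = 0.121, 0.167 and 0.277). The day 14 value was -0.36 ± 0.27 without replicate 1.

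Onecut3 had 5.69, 4.72, 4.83 and 5.78 CPM in controls, 3.06, 2.66, 2.85 and 2.62 at day 3, and 2.85, 3.41, 3.67 and 3.68 at day 7. At day 14 it had 0.505, 4.57, 3.38 and 2.92 CPM. No library of the 3 days reached the lowest control value. The log2 fold change was -0.91 ± 0.38 at day 3, -0.63 ± 0.38 at day 7 and -0.88 ± 0.38 at day 14 (SE), with adjusted p-values of 0.103, 0.262 and 0.179 from edgeR. The day 14 value was -0.52 ± 0.19 without replicate 1. Day 3 had the narrowest spread of the 3 days (SD of 0.204 CPM, n = 4).

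Because the family members moved by different amounts, the share of Onecut1 among all counts of Onecut1, Onecut2 and Onecut3 was computed. This measure does not depend on library scaling, was chosen after the values were seen, and is given without a test. In controls the share was 14.7%, 17.9%, 21.8% and 15.96% of 184 to 211 family counts. At day 3 it was 4.08%, 8.2%, 0% and 6.52%, and at day 7 3.19%, 1.14%, 6.78% and 4.13%. At day 14 it was 14.3%, 11.2%, 3.74% and 9.7%, each below the lowest control. The mean share was 17.6% ± 3.09 in controls and 4.7% ± 3.56, 3.81% ± 2.34 and 9.74% ± 4.43 on the 3 days in order (SD, n = 4 each). The highest day 14 share comes from replicate 1, which had only 21 family counts and a 95% Wilson interval of 4.98% to 34.6%. Wilson intervals cover counting error only.

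**Figure D2:**
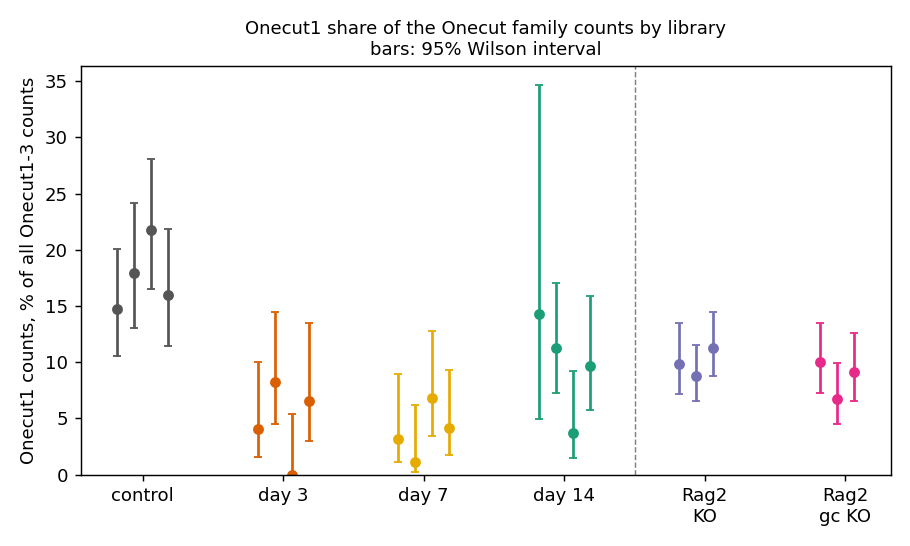
The share of Onecut1 in the summed counts of the 3 Onecut genes (y axis, percent) is plotted for every library by group (x axis), with bars for the 95% Wilson interval. The 4 controls lie between 14.7% and 21.8%, and the 12 lasered wild-type libraries between 0% and 14.3%.

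Lhx1 was lower after the laser in every library, without passing the test. It had 6.37, 5.44, 6.73 and 5.33 CPM in controls. At day 3 it had 3.49, 4.47, 1.92 and 2.62 CPM, and at day 7 3.41, 3.93, 3.61 and 3.44 CPM. Neither day overlapped the controls, and the day 7 libraries lay close together. At day 14 it had 0.433 CPM in replicate 1 and 4.75, 4.83 and 4.67 in the others, all below the lowest control. The log2 fold change was -0.93 ± 0.45 at day 3, -0.73 ± 0.45 at day 7 and -0.69 ± 0.45 at day 14 (SE), with edgeR adjusted p-values of 0.144, 0.269 and 0.335. Without day 14 replicate 1 the day 14 value was -0.31 ± 0.23. Lhx1os, a long noncoding RNA that runs away from Lhx1 and starts inside the window printed above, had 1.86 ± 0.516 CPM in controls and 1.68 ± 0.429 at day 3 (edgeR adjusted p = 0.839).

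Calb1 was far more abundant, so counting error matters little to it. It had 54.9, 56.3, 48.2 and 64.2 CPM in controls, 49.1, 42.1, 30.3 and 32.2 at day 3, and 39.1, 47.9, 53.9 and 42.4 at day 7. At each of these days 3 of 4 libraries lay below all controls and 1 lay within their range. At day 14 it had 3.47 CPM in replicate 1 and 51.5, 71.9 and 57.9 in the others, which overlap the controls. The log2 fold change was -0.54 ± 0.51 at day 3, -0.29 ± 0.51 at day 7 and -0.27 ± 0.51 at day 14 (SE), with edgeR adjusted p-values of 0.444, 0.716 and 0.747. The day 14 value turned to 0.13 ± 0.17 without replicate 1.

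Prox1 showed no common direction. It had 137, 182, 158 and 152 CPM in controls, 113, 156, 107 and 143 at day 3, and 82.5, 70.6, 129 and 165 at day 7. At day 14 it had 259.6, 182, 97.7 and 146 CPM, so that the highest of the 16 wild-type values and one of the lowest were in the same group. All 3 days overlapped the controls. The log2 fold change was -0.28 ± 0.28 at day 3, -0.49 ± 0.28 at day 7 and 0.13 ± 0.28 at day 14 (SE), with edgeR adjusted p-values of 0.482, 0.236 and 0.795. The day 14 value was -0.13 ± 0.27 without replicate 1.

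Prox1 varied with the lens content of the libraries. With group means removed, its log2 CPM correlated with the mean log2 CPM of the lens list over the 16 wild-type libraries (Pearson r = 0.785, permutation p = 0.00367, adjusted 0.0305; Spearman rho = 0.715, permutation p = 0.00258, adjusted 0.031). The r was 0.664 without the 2 libraries whose lens score, group means removed, lay farthest from the median (day 14 replicate 3 and day 7 replicate 2). It was 0.748 without day 14 replicate 1. This is 1 of 12 relations computed, 6 genes against the lens and against the cornea and conjunctiva score, adjusted together. The lens score did not pass with any other member (adjusted p of r from 0.174 to 0.81). Prox1 is also a gene of lymphatic endothelium. The lymphatic list, 5 symbols of which Pdpn gave the largest part, summed to 80.4 to 88.6 CPM in controls and 129 to 187 at day 3, while Lyve1 had 9.49 ± 2.32 and 8.59 ± 1.26 CPM (SD, n = 4). The part of lens or lymphatic RNA in the Prox1 values was not tested.

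Onecut1 was the other member with a relation that passed. It was lower where the cornea and conjunctiva score was higher, within groups (Pearson r = -0.779, permutation p = 0.00509, adjusted 0.0305; Spearman rho = -0.741, permutation p = 0.00566, adjusted 0.034; n = 16). The r was -0.678 without day 3 replicates 3 and 4, the 2 libraries whose score, group means removed, lay farthest from the median. It was -0.762 without day 14 replicate 1. With both scores as covariates in the edgeR fit, the Onecut1 log2 fold change was -2.69 ± 0.71 at day 3 (adjusted p = 0.0483) and -2.59 ± 0.60 at day 7 (adjusted p = 0.0187). In that fit Onecut2 was at -0.43 at day 3, Onecut3 at -0.18 and Lhx1 at -0.07, each nearer 0 than without the scores. Calb1 turned to 0.60, and Prox1 moved away from 0 to -0.70 ± 0.23 at day 3 (adjusted p = 0.0941 by edgeR) and -0.58 ± 0.19 at day 7 (adjusted p = 0.0642). Scores and groups move together, with every day 3 lens sum above every control sum, so scores and groups cannot be fully told apart.

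**Figure D3:**
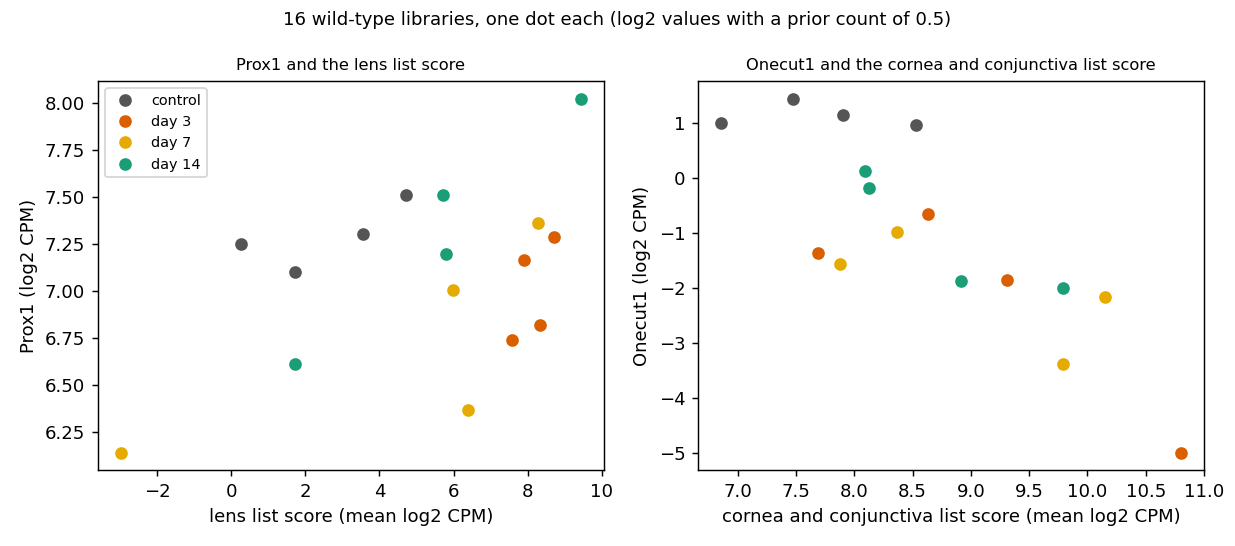
Each dot is a wild-type library, coloured by group. The left panel plots Prox1 (log2 CPM, y axis) against the lens list score (mean log2 CPM, x axis), and the right panel Onecut1 against the cornea and conjunctiva list score. Day 14 replicate 1 is at the upper right of the left panel, and the Onecut1 dot at the bottom right is day 3 replicate 3, with a count of 0.

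Counted together, 1 of the 6 members was called at day 3 and 1 at day 7, Onecut1 in both. Over all 18657 tested genes edgeR called 14.7% at day 3 (7.77% lower) and 10.5% at day 7 (6.9% lower), so a count of 1 is near the background. At day 14 no member was called by edgeR, with 0.273% of all genes called. There 2 members (Onecut1 and Onecut3) had an unadjusted p under 0.05 by edgeR, beside 24.8% of all tested genes. DESeq2 called 1 member and limma voom 0. The shares of all genes called by these tools are not given here. Every library lay below every control for 4 of 6 members at day 3, beside 22.8% of all tested genes, for 4 of 6 at day 7, beside 18.4%, and for 3 of 6 at day 14, beside 12.8%. The median log2 fold change of the 6 members was -0.89, -0.68 and -0.69 at the 3 days, against 0.0088, 0.028 and 0.039 over all tested genes. The day 14 median of the members was -0.33 without replicate 1 of that day, against 0.024 over all tested genes. The 3 comparisons share the same controls.

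The number called depends on which libraries set the spread. Without day 14 replicate 1 edgeR called 5 of 6 members at day 3 (Onecut1, Onecut2, Onecut3, Lhx1 and Calb1) and 4 at day 7 (the Onecut genes and Lhx1), with 32.7% and 24.6% of all genes called. The counts were also 5 and 4 when the fit held no other group than those compared, where 40.4% and 25.3% of all genes were called. The authors' deposited table called 5, 4 and 1 of the 6 members at day 3, 7 and 14, with 26.4%, 18.8% and 3.65% of its genes called. Prox1 was called in none of these.

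**Figure D4:**
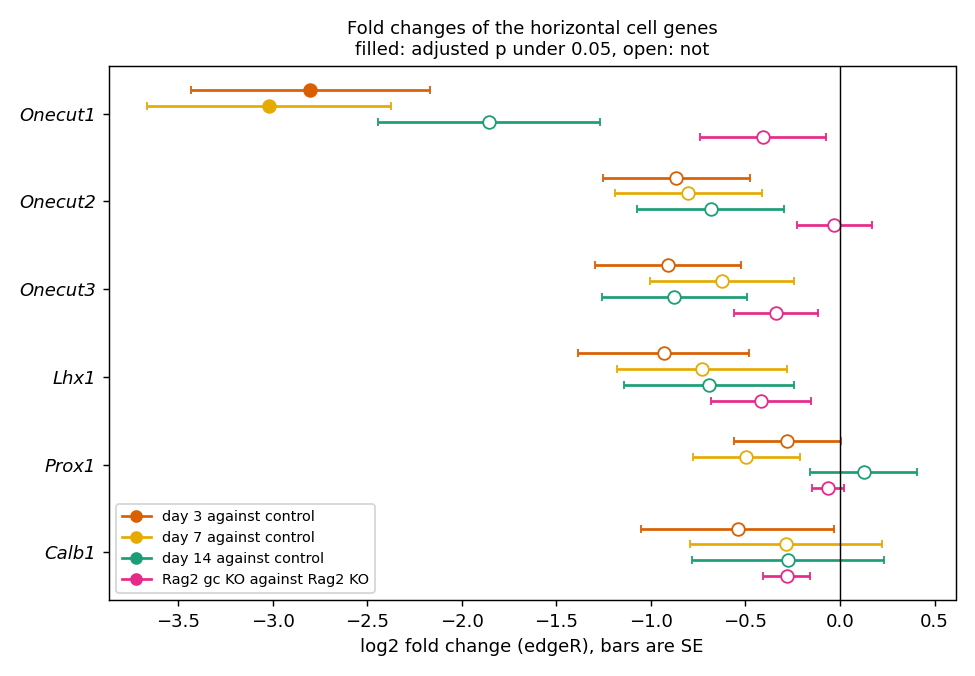
The log2 fold change (x axis) of each member (y axis) is plotted for 4 comparisons, with bars for the SE and filled dots for an adjusted p under 0.05 in edgeR. Onecut1 at day 3 (-2.80) and day 7 (-3.02) are the filled dots.

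No member was called between the days after the laser by edgeR's test. Onecut1 was at -0.22 ± 0.74 (log2, SE) from day 3 to day 7, 0.95 ± 0.67 from day 3 to day 14 and 1.16 ± 0.69 from day 7 to day 14. The adjusted p-values of edgeR were 0.969, 0.838 and 0.9999. In the same order of comparisons Onecut2 was at 0.06, 0.18 and 0.12, Onecut3 at 0.28, 0.03 and -0.25, and Lhx1 at 0.20, 0.24 and 0.04. Prox1 was at -0.22, 0.40 and 0.62, and Calb1 at 0.26, 0.27 and 0.01. Of the 6 members 0, 0 and 1 had an unadjusted p under 0.05 in these comparisons, beside 6.13%, 6.77% and 3.33% of all tested genes. The 1 was Prox1 at day 14 against day 7 (SE 0.28). DESeq2 and limma voom called 0 members in each comparison. Of all genes edgeR called 0%, 0.00536% and 0%, so these comparisons called almost nothing. Without day 14 replicate 1, Calb1 was called higher at day 14 than at day 3 (0.66 ± 0.17, adjusted p = 0.0333 by edgeR), in a fit that called 6.82% of all genes in that comparison.

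In the Rag2 table, where both groups were lasered, no member was called between the genotypes by edgeR, with 0.465% of 18923 tested genes called. No member had an unadjusted p under 0.05, beside 14.7% of all tested genes, and DESeq2 and limma voom also called 0. Onecut1 had 1.12, 1.47 and 1.79 CPM in the Rag2 KO libraries, against 1.34, 0.793 and 1.17 in Rag2 gc KO. These ranges overlap, and the log2 fold change of Rag2 gc KO against Rag2 KO was -0.41 ± 0.33 (SE, adjusted p = 0.608 by edgeR). Its share of the Onecut family counts was 9.95% ± 1.27 in the first genotype and 8.61% ± 1.7 in the second (SD, n = 3 each).

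Onecut2 had 4.85, 6.70 and 6.02 CPM in Rag2 KO, against 5.26, 5.19 and 6.76 in Rag2 gc KO, nearly the same range. Onecut3 had 5.41, 8.70 and 8.04 against 6.86, 5.84 and 4.85 CPM. Lhx1 had 4.72, 8.77 and 6.88 against 6.19, 5.26 and 3.82 CPM. In both genes the genotypes overlapped, with the lowest library in Rag2 gc KO. Prox1 had 140, 172 and 144 against 140, 149 and 147 CPM, and Calb1 75.6, 95.9 and 78.3 against 71.5, 76.2 and 58.0 CPM. The log2 fold changes of these 5 genes ran from -0.42 ± 0.27 (Lhx1) to -0.03 ± 0.20 (Onecut2), with edgeR adjusted p-values from 0.349 (Calb1) to 0.96 (Onecut2). The median over the 6 members was -0.31, against 0.004 over all tested genes. For no member did every Rag2 gc KO library lie below every Rag2 KO library, beside 10.6% of all tested genes.

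Other horizontal cell genes were followed in 2 lists. The mature marker list has 7 genes: Gja10 (the gap junction protein connexin 57), Sept4, Slc4a3, Megf10 and Megf11 (receptors that space the cells), and Slc32a1 and Gad1 (GABA release and synthesis, shared with amacrine cells). At day 3 edgeR called 2 of the 7, both lower: Slc4a3, an anion exchanger, from 171 ± 12.9 to 124 ± 20.9 CPM (SD, n = 4; log2 -0.46, adjusted p = 0.0482) and Megf11 from 32.9 ± 2.86 to 24.5 ± 3.63 CPM (-0.42, adjusted p = 0.0447). The share called lower over all tested genes was 7.77% at day 3. All 7 list genes had negative fold changes at day 3 and at day 7, and 6 of 7 at day 14, with medians of -0.46, -0.20 and -0.27. Of all 18657 tested genes 9201, 8926 and 8666 had negative fold changes at day 3, 7 and 14. Gja10, named after its values were seen, was the lowest of the list: 2.003 ± 0.527 CPM in controls, 0.844 ± 0.186 at day 3 and 0.774 ± 0.268 at day 7. Its adjusted p was 0.0581 and 0.0529 by edgeR. The list summed to 594, 636, 623 and 721 CPM in controls and to 516, 547, 376 and 457 CPM at day 3, with no overlap. The day 3 sums of the amacrine, ganglion, bipolar, rod, cone, Muller glia and pigment epithelium lists did not overlap their controls either. The rod list, for example, summed to 26050 to 41060 CPM at day 3 and 52960 to 60560 in controls.

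The specification list has 8 transcription factors that act before or beside the Onecut genes, of which 6 were tested (Foxn4 and Ptf1a, both embryonic, did not pass the filter on low counts). None was called on any day by edgeR, and 4 of 6 had negative fold changes on each day, with medians of -0.51, -0.22 and -0.08. Over both lists and 13 tested genes, edgeR called 2, 0 and 0 at day 3, 7 and 14, with 7, 2 and 2 at an unadjusted p under 0.05, beside 37.4%, 32.1% and 24.8% of all tested genes. DESeq2 called 6, 1 and 0, and limma voom 2, 0 and 0, without the share of all genes these tools called, which is not given here. Between the Rag2 genotypes edgeR, DESeq2 and limma voom called 0 of the 13, and 7 had an unadjusted p under 0.05, beside 14.7% of all tested genes. The call of 2 at day 3 ranged from 0 to 9 over the alternatives, while the number called over all genes ran from 292 to 7171.

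**Figure D5:**
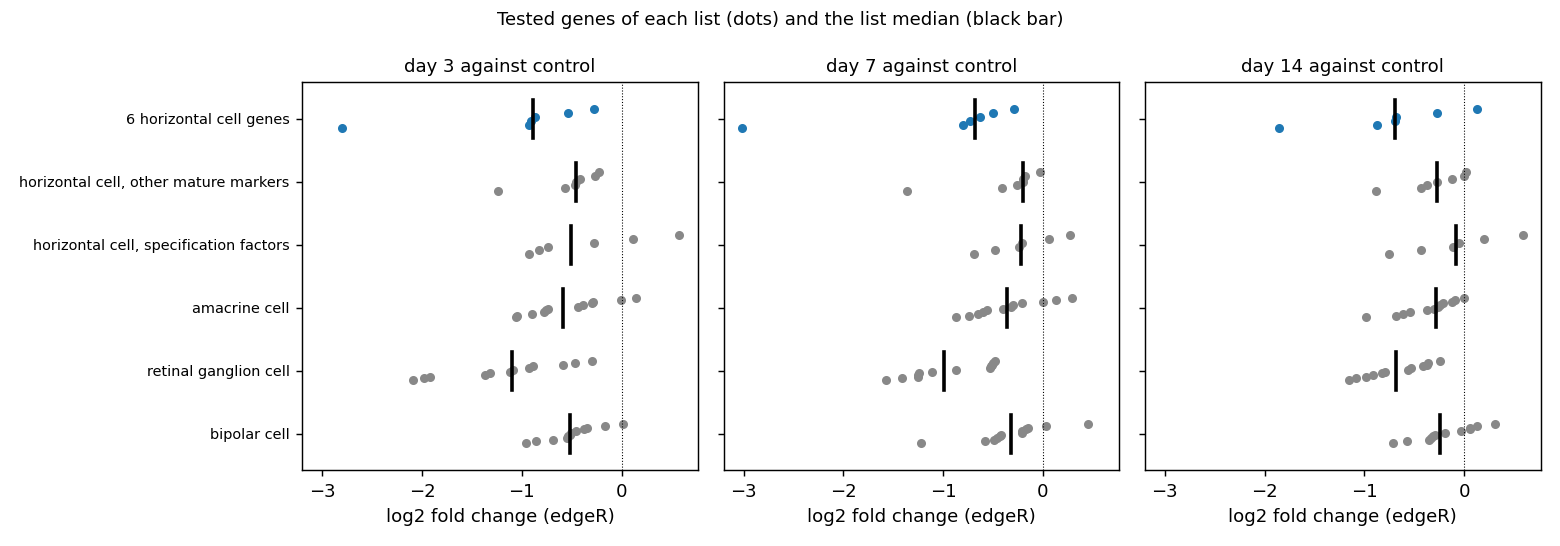
Each dot is a tested gene, placed by its log2 fold change against control (x axis), for the 6 members and 5 retinal neuron lists (y axis). The black bar is the list median, and the leftmost dot in the top row is Onecut1 (-2.80, -3.02 and -1.86).

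Marker genes of other retinal neurons mostly had negative fold changes as well, 12 of 12 ganglion cell, 11 of 12 amacrine cell and 11 of 12 bipolar cell genes at day 3. Among all 18657 tested genes 9201 were negative at day 3. At day 3 edgeR called 3 of 12 ganglion cell genes lower, Nefh, Pou4f1 and Isl2, and the list median was -1.10. The amacrine and bipolar list medians were -0.59 and -0.51, with 2 (Meis2 and Slc6a9) and 1 (Trpm1) of 12 called lower. At day 7 the 3 medians were -0.99, -0.36 and -0.32, with 0, 2 (Meis2 and Slc6a9) and 2 (Trpm1 and Nyx) of 12 called lower. These counts stand beside 7.77% of all tested genes called lower at day 3 and 6.9% at day 7. The median of the 6 members lay between that of the ganglion cell list and those of the amacrine and bipolar lists at both days. Photoreceptor genes were mostly negative at day 3 too, 10 of 10 rod genes (median -0.64) and 9 of 10 cone genes (median -0.53). Of 10 Muller glia genes 5 were negative at day 3. The part of ganglion cells in the Onecut, Lhx1 and Calb1 values was not tested.

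Longer genes tended to have lower fold changes in these comparisons (Spearman correlation of log2 fold change with the deposited gene length, across genes, -0.243, -0.342 and -0.285 at day 3, 7 and 14; genes are not independent replicates). Onecut1 (4113 bases) and Lhx1 (4072) were in the middle of 5 equal length classes, where 3.78% of genes were called lower at day 3 and the median was 0.056. Onecut3 (4776) and Calb1 (4846) were in the next class, with 9.68% called lower. Onecut2 (13391) and Prox1 (8390) were in the longest class, where 20.7% were called lower and the median was -0.25. The part of gene length in these values was not tested.

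Prox1os, annotated on the strand opposite to Prox1 and overlapping its first 419 bases, went up at day 3. It had 2.35, 4.92, 3.37 and 2.79 CPM in controls and 7.04, 15.9, 9.80 and 15.8 at day 3, with no overlap (log2 fold change 1.85 ± 0.52, adjusted p = 0.0339 by edgeR). At day 7 it was at 1.15 ± 0.52 (adjusted p = 0.14) and at day 14 at 2.16 ± 0.52 (adjusted p = 0.0688), where replicate 1 had 36.2 CPM. A second antisense gene, Gm28172, lies within Prox1. The strand setting of the counting is not given in the sources used here, so reads in the overlaps cannot be assigned to Prox1 or its antisense genes.

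The genes that varied across libraries most like each member were found by their correlation, whatever their level. Over the 16 wild-type libraries, among 16657 genes whose mean reached 1 CPM, the log2 CPM of Onecut1 was most like that of Alg10b, Ppp1r9a, Jmy, Gm42967 and Ulk2 (Pearson r from 0.962 to 0.947). The r of these 5 genes was 0.963 to 0.947 without day 14 replicate 1. Onecut2 was most like 9330162G02Rik, Unc13a, Sv2c, Plppr4 and Hcn4 (0.968 to 0.964, and 0.939 to 0.927 without that library), and Onecut3 most like Gpr176, Gpr61, Gm42372, Nell1 and Gsg1l (0.95 to 0.948, and 0.883 to 0.76 without it). Lhx1 was most like Dnm1, Snph, Pgbd5, Kcnj9 and Eomes (0.975 to 0.973, and 0.923 to 0.891 without it), and Calb1 most like Vstm2b, Stmn3, A930016O22Rik, Gm4792 and Sncb (0.984 to 0.976, and 0.919 to 0.83 without it). Prox1 was most like Cadm1, Nhs, Igdcc4, Nrcam and Necab1 (0.964 to 0.954, and 0.96 to 0.941 without it).

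Among the members, Onecut1 and Onecut2 had an r of 0.749 over 16 libraries and 0.935 over 15 without day 14 replicate 1. Lhx1 and Calb1 had 0.942 and 0.761, and Onecut3 and Calb1 0.92 and 0.57. Prox1 and Calb1 had -0.466 and 0.134. These correlations mix groups and share library content, and day 14 replicate 1 set the sign of the last one.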

How the data were processed

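Gene counts of 22 libraries were deposited as 2 tables, 16 wild-type and 6 Rag2 libraries. The deposited counts were made with featureCounts 1.5.0-p3 on mm10, per the submitters' processing notes. The aligner and annotation are not named in the sources used here, and neither is the strand setting. The deposited FPKM values were not used for tests. The authors' deposited log2 fold changes, p-values and adjusted p-values against control, made with a tool not given here, are quoted only where named.

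Counts were tested with edgeR 4.0.16 (quasi-likelihood, robust, TMM scaling, filterByExpr at a count of 10 and a total of 15) and limma 3.58.1 in R 4.3.3. All 6 members passed the filter in both tables. All 4 wild-type groups shared a fit, and the Rag2 table was fitted apart. P-values were Benjamini-Hochberg adjusted over all tested genes, and an adjusted p under 0.05 was a call. CPM uses TMM-scaled library sizes, and TPM divides by the deposited gene length. Log2 CPM used a prior count of 0.5. DESeq2 1.42.0, limma voom, other scalings, no filter, a replicate block, tissue scores as covariates and left-out libraries were alternatives. The statistics were tested on simulated data.

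All 6 members were named in every comparison, horizontal cell list genes where called, and the 5 genes most like each member by Pearson r. Called genes of other lists and the antisense genes were named after their values were seen. The members and lists were chosen with earlier results of these data known. Read totals and counts limit precision as given with the values. Samples were grouped by GEO's labels, which give no batch.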

Additional observations from a re-analysis of the deposited data

Results flagged for a closer look

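Among 24 sets of 4 libraries (6 members in each of the 4 wild-type groups), 1 held a library far from the others. Lhx1 was at 0.433 CPM in day 14 replicate 1, while the other 3 libraries of that day lay between 4.67 and 4.83 CPM. Chance flags about 1 in 20 such sets. The same library also had the lowest day 14 value of Onecut1, Onecut2, Onecut3 and Calb1 and the highest of Prox1, beside the highest lens sum of the 16 wild-type libraries. The part of lens RNA in these values was not tested.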

How the results depend on the processing

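At day 3 and day 7 Onecut1 was called in 8 alternatives that keep all compared libraries and in 1 that leaves out 3 together, and in 15 and 13 of 16 runs that left out 1 library each. The number of members called against control was 1 at day 3 and 1 at day 7. It was 5 and 4 when the fit held no other group than those compared. It was 3 and 3 without 3 libraries, replicate 3 of day 3, replicate 2 of day 7 and replicate 1 of day 14. The share of all genes called in that fit is not given here. Each of the 3 was high in lens or ocular surface RNA. Day 7 replicate 1, which was kept, had more of both than replicate 2 (lens 10094.5 against 9.41 CPM, cornea and conjunctiva 26521 against 23851 CPM). The number of members called ran from 0 to 5 and 0 to 4 with 1 library left out. The 5 and 4 came without day 14 replicate 1, an alternative chosen after seeing the data. At day 14 the number was 0, with 0 in each such run and 1 by DESeq2 (Onecut1, -1.87). At day 14 against day 3 it was 0 to 1 (Calb1, without day 14 replicate 1). In the other comparisons it stayed at 0. The number of genes called over the whole table moved from 2749 to between 292 and 7171 at day 3, from 1962 to between 128 and 4645 at day 7, from 51 to between 1 and 1778 at day 14, from 1 to between 0 and 1290 at day 14 against day 3, from 0 to at most 63 at day 7 against day 3, and from 88 to between 25 and 695 between the Rag2 genotypes. The cause was not tested. Single log2 fold changes that changed sign, none of them called, were these. With lens and cornea scores as covariates Calb1 was at 0.60, 0.38 and 0.19 at day 3, 7 and 14, Prox1 at -0.13 at day 14 and Onecut1 at 0.10 from day 3 to day 7. Without the 3 libraries named above Prox1 was at -0.13 and Calb1 at 0.13 at day 14, and likewise without day 14 replicate 1 alone, in ranges with 1 library left out from -0.13 to 0.32 and from -0.57 to 0.13. Onecut1 from day 3 to day 7 was at 0.16 by limma voom, 0.34 without day 3 replicate 2 and 0.10 without day 7 replicate 2, in a range from -0.68 to 0.34. Between the Rag2 genotypes Onecut2 was at 0.073, 0.027 and 0.037 without Rag2 KO replicate 2, Rag2 gc KO replicate 1 and Rag2 gc KO replicate 2, in a range from -0.16 to 0.073, and Prox1 at 0.030 without Rag2 KO replicate 2, in a range from -0.12 to 0.030. Other scalings moved the median of all genes by at most 0.054 (log2).

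With the replicate number as a replicate block, 1, 1 and 0 members were called at day 3, 7 and 14 and 0 between the Rag2 genotypes, and Onecut1 was at -2.90, -3.03 and -1.99. The labels give the groups only shared numbers. Same-numbered wild-type libraries had correlations of their deviations from -0.471 to 0.452 over 24 pairs, and the Rag2 libraries from -0.0453 to 0.0696 over 3 pairs, so the numbers were not taken to pair the libraries. Depth limits Onecut1 most, with 0 to 18 counts in each wild-type library after the laser.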
